A study of Mus musculus with 24 samples.

Results

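The 10 genes followed here mark myeloid cells as a whole and were measured in epididymal white adipose tissue: Adgre1 (older symbol Emr1), Cd68, Itgam, Csf1r, Cd14, Fcgr1, Fcgr3, Fcer1g, Tyrobp and Lyz2. They were listed by name, and their probes were found through the transcript accession that the array gives for each probe. Of the 10 genes, 9 matched a probe, among 20660 genes with a matched probe on the array, and Cd68 was not analysed here because the accession carried by its array probe is not in the RefSeq table used for matching. The 9 genes had 14 probes, of which 13 passed the filter on dim signals, so that all 9 were among the 13020 genes with a kept probe. The study asked how white adipose tissue responds when vitamin B3 is withdrawn. Its 24 arrays each carried the Cy5-labelled RNA of 1 mouse against the same Cy3-labelled reference pool, all in the same dye orientation, and every value below is the log2 of that ratio. A value of 0 is therefore the level of the pool, not of a control group.

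All animals were individually housed C57BL/6JRcc males, given as 28 or 29 weeks old, on a semi-synthetic diet with 40% of its energy from fat and a low but sufficient amount of tryptophan. In the Ctrl NR group (n = 12) that diet held 30 mg nicotinamide riboside, a form of vitamin B3, per kg. In the No NR group (n = 12) it held 0 mg per kg for 18 weeks. Both groups were fasted and then refed for 4 hours before the tissue was taken. The reference pool also held RNA of mice on other diets, including 4 females. Each array came from its own numbered mouse. On an array, between 34.5% and 50.7% of spots were well above background in Cy5.

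Macrophages, monocytes, neutrophils and dendritic cells share a set of surface receptors with which they adhere, take up antibody-coated particles and sense bacteria. Some of these receptors have no signalling motif of their own. Fc receptors and many other activating receptors pair instead with the small adaptors FcRγ (Fcer1g) and DAP12 (Tyrobp), whose tyrosine motifs (ITAMs) recruit the kinase SYK. CSF1R is the receptor for the growth factors CSF1 and IL-34 that keep macrophages alive, and in obese adipose tissue macrophages gather around dying adipocytes.

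Sequences of the regions around the start sites, each covering 250 bases before to 50 bases after the start, were taken from RefSeq on GRCm38.p6. Such regions were read here for 6 of the 10 genes, and nothing is said of the regions of the others. The letters GAGGAA, the core of the element bound by the myeloid transcription factor PU.1 (Spi1), were searched on both strands, where the other strand reads TTCCTC. They are in capitals in the 4 regions shown, which were chosen because they hold the pair of Fc receptor genes, their shared adaptor, and Itgam, the gene whose probes did not all follow the others. Fcgr1 lies at chr3:96293920-96294219 on the minus strand, Fcgr3 at chr1:171059354-171059653 on the minus strand, Fcer1g at chr1:171234300-171234599 on the minus strand and Itgam at chr7:128062390-128062689 on the plus strand, and each is read along its gene.
Fcgr1: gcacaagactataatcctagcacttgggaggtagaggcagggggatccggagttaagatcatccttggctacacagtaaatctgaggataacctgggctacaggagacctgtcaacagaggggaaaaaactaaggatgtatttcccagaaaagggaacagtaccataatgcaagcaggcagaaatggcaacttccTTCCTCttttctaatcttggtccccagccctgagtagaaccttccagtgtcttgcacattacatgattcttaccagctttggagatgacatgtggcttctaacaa
Fcgr3: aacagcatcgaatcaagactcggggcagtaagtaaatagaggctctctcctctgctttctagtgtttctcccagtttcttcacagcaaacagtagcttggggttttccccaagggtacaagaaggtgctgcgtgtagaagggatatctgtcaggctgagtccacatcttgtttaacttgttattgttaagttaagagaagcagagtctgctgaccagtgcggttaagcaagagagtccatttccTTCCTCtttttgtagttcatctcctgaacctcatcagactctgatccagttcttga
Fcer1g: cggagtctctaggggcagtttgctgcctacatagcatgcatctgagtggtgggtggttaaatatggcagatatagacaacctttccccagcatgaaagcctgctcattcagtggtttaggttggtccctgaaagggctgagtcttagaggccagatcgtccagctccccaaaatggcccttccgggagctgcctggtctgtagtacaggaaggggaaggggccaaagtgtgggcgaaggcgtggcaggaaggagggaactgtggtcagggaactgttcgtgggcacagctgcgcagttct
Itgam: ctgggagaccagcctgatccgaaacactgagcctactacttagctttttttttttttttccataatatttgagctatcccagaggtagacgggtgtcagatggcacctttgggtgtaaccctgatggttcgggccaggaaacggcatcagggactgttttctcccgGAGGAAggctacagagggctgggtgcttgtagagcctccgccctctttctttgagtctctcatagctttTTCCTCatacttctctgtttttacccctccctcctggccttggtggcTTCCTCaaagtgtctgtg

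Itgam held the letters 3 times, Cd68 2 times, Fcgr1 and Fcgr3 once each, and Fcer1g and Lyz2 held none in this window. Of all 32851 regions of this length in the table, 28.3% held them on either strand. The regions of Fcgr1 and Fcgr3 shared a run of 14 bases around the match, ttccTTCCTCtttt, in which the capitals begin 55 bases before the start site of Fcgr1 and 6 bases before that of Fcgr3. Over all genes, 3 regions held this run on the strand of their gene, namely that of Fcgr1 and the 2 listed for Fcgr3, and 5 regions held it on either strand. The run was picked after the sequences were seen, and these matches describe letters only.

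Csf1r, the receptor that macrophage survival depends on, ran from -1.35 to 0.37 in Ctrl NR mice with a median of -0.29 and from -0.91 to 0.28 in No NR mice with a median of -0.04. Above the reference pool lay 5 No NR mice and 3 Ctrl NR mice, and the diets overlapped over most of their range. The means were -0.43 ± 0.59 (SD, n = 12) in Ctrl NR and -0.22 ± 0.44 (SD, n = 12) in No NR. This is a log2 difference of 0.22 (SE 0.193, 95% interval -0.18 to 0.61), with a Benjamini-Hochberg adjusted p of 0.636 in the limma fit over all 24778 kept probes. In bulk tissue, fewer cells of a type and less RNA per cell cannot be told apart, here or for any gene that follows. The other 2 Csf1r probes had differences of -0.08 (SE 0.176) and -0.04 (SE 0.105), the other way, and the second of these turned positive under 4 of the 10 other ways of processing.

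Adgre1 encodes the adhesion-type receptor by which mouse macrophages are recognised. It ran from -2.54 to 1.08 in Ctrl NR mice with a median of -0.53, and from -1.74 to 0.79 in No NR mice with a median of 0.08. This span of 12.2-fold between the lowest and the highest of the 24 mice was the widest among the 9 genes. Below every No NR mouse lay 3 Ctrl NR mice and above every No NR mouse lay another 2, so the diets overlapped throughout. The difference was 0.44 (SE 0.408, limma adjusted p = 0.645), and the second Adgre1 probe gave 0.49 (SE 0.352, limma adjusted p = 0.544).

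Itgam encodes CD11b, the integrin chain that pairs with CD18 (Itgb2) to form complement receptor 3. Its brightest probe ran from -0.29 to 0.41 in Ctrl NR mice with a median of 0.01, and from 0.06 to 0.44 in No NR mice with a median of 0.22. All 12 No NR mice and 6 of 12 Ctrl NR mice were above 0, although the ranges overlapped. The means were 0.03 ± 0.21 (SD, n = 12) and 0.24 ± 0.14 (SD, n = 12), a difference of 0.21 (SE 0.0749, 95% interval 0.05 to 0.36, unadjusted limma p = 0.0106, adjusted p = 0.219). The difference was positive on each of the 5 slides (0.35, 0.25, 0.30, 0.19 and 0.08), and with slide as a block it was 0.22 (limma adjusted p = 0.207). The second kept Itgam probe ran from -0.52 to 0.89 in Ctrl NR mice and from -0.52 to 0.65 in No NR mice. Its difference was 0.12 (SE 0.165, limma adjusted p = 0.764), and it was positive on 3 of 5 slides. The remaining Itgam probe, carrying another transcript accession, was well above background on 9 of 24 arrays and was not kept.

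Fcgr1 encodes the high-affinity receptor for IgG. It ran from -1.48 to 0.89 in Ctrl NR mice with a median of -0.68, and from -1.16 to 0.52 in No NR mice with a median of -0.29. The highest value was a Ctrl NR mouse, and the difference was 0.25 (SE 0.241, limma adjusted p = 0.662). Fcgr3 encodes the low-affinity activating receptor for IgG complexes. It ran from -1.31 to 0.98 in Ctrl NR mice with a median of -0.36, and from -0.65 to 1.12 in No NR mice with a median of 0.60. Above 0 lay 8 of 12 No NR mice and 3 of 12 Ctrl NR mice, and the ranges overlapped between -0.65 and 0.98. The means were -0.34 ± 0.71 (SD, n = 12) and 0.34 ± 0.64 (SD, n = 12), which is a difference of 0.68 or 1.6-fold (SE 0.25, 95% interval 0.16 to 1.19, unadjusted limma p = 0.0116, adjusted p = 0.226). It was positive on 4 of 5 slides (-0.45, 0.74, 0.07, 0.89 and 1.4), and with slide as a block it was 0.63 (limma adjusted p = 0.329).

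Cd14, the co-receptor that hands lipopolysaccharide to TLR4, ran from -1.48 to 0.61 in Ctrl NR mice with a median of -0.40, and from -1.12 to 0.37 in No NR mice with a median of -0.15. The No NR values lay inside the Ctrl NR range, and the difference was 0.21 (SE 0.226, limma adjusted p = 0.69). Lyz2, which encodes the lysozyme of macrophages and granulocytes, ran from -1.58 to 0.68 in Ctrl NR mice with a median of -0.20, and from -0.86 to 0.60 in No NR mice with a median of 0.17. The No NR values again lay inside the Ctrl NR range, and the difference was 0.39 (SE 0.235, limma adjusted p = 0.468). Lyz1, a near-identical neighbour of Lyz2 whose signal may be shared between the 2 probes, had a difference of 0.31 (SE 0.253, limma adjusted p = 0.602).

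Fcer1g, the adaptor of the Fc receptors, ran from -1.75 to 0.91 in Ctrl NR mice with a median of -0.29, and from -1.23 to 0.76 in No NR mice with a median of 0.11. Its difference was 0.30 (SE 0.294, limma adjusted p = 0.672). Tyrobp, the adaptor of TREM2 and related receptors, ran from -2.31 to 0.71 in Ctrl NR mice with a median of -0.67, and from -1.44 to 0.78 in No NR mice with a median of 0.20. Above 0 lay 8 of 12 No NR mice and 4 of 12 Ctrl NR mice, with 3 Ctrl NR mice below every No NR mouse. The difference was 0.53 (SE 0.367, limma adjusted p = 0.532).

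**Figure D1:**
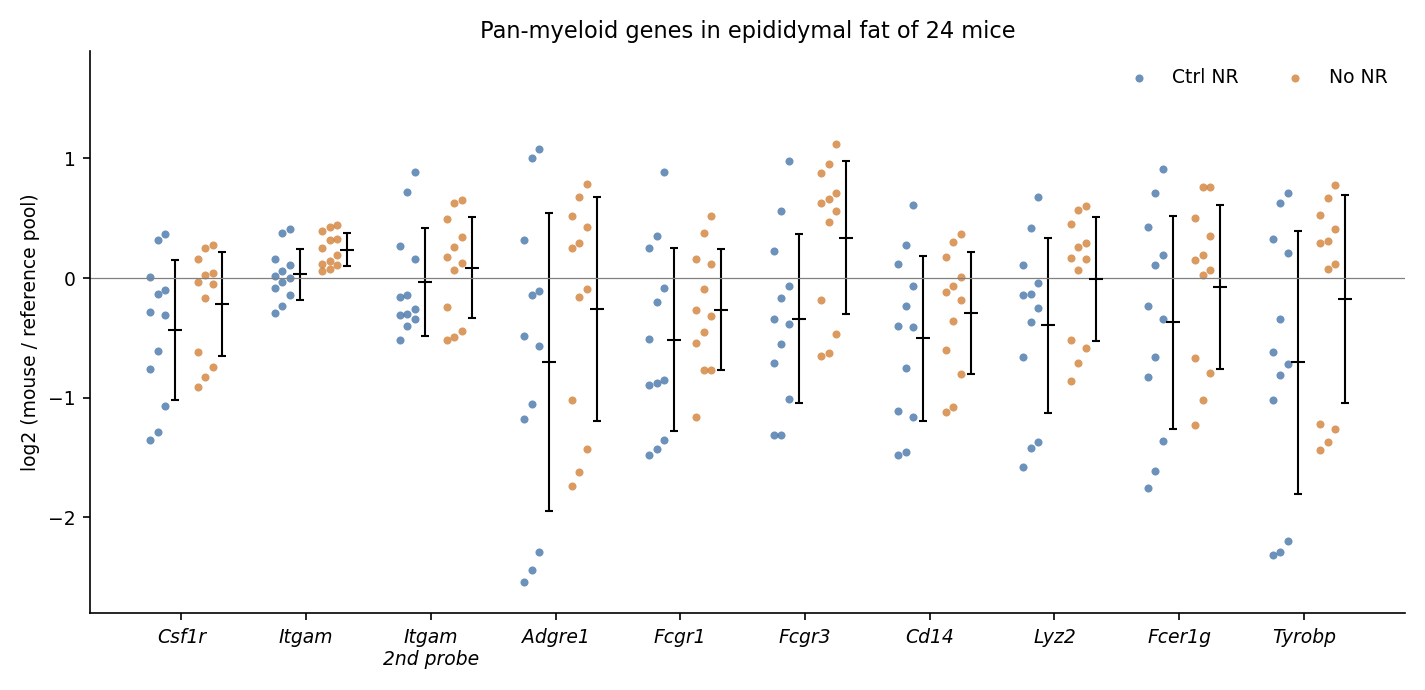
Log2 ratio to the reference pool (vertical axis) of each of the 9 genes, with 1 point per mouse in blue for Ctrl NR and orange for No NR (12 each) and the mean with its SD in black. The brightest kept probe is shown for every gene and the second kept probe for Itgam as well, and the diets overlap for every gene.

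The brightest probes of 9 of 9 genes were higher in No NR, where 47.1% of all kept probes were, and their median difference was 0.30 against -0.01 over all kept probes. Of these 9, 8 rose and fell together from mouse to mouse, as described below, so their directions are not separate observations. Centring the arrays on their median in place of loess left all 9 higher in No NR but lowered the differences, among them that of Csf1r from 0.22 to 0.01 and that of Itgam from 0.21 to 0.04. By a Benjamini-Hochberg adjusted p under 0.05 in limma, no probe of these genes was called, as was 0% of all kept probes, with 3479 kept probes at an unadjusted p under 0.05. Itgam and Fcgr3 were the 2 of 9 that were higher at an unadjusted p under 0.05, where 6.63% of all kept probes were. Leaving out 1 mouse changed the count of called probes from 0 to 271 without Ctrl NR mouse 117, 257 without Ctrl NR mouse 68, 105 without Ctrl NR mouse 104, 42 without Ctrl NR mouse 77, 6 without Ctrl NR mouse 75, 3 without No NR mouse 78 and 2 without No NR mouse 118. None of the probes of the 9 genes was among them, and the lowest adjusted p that the brightest probe of any of the 9 reached on leaving out a mouse was 0.0855, for Fcgr3.

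**Figure D2:**
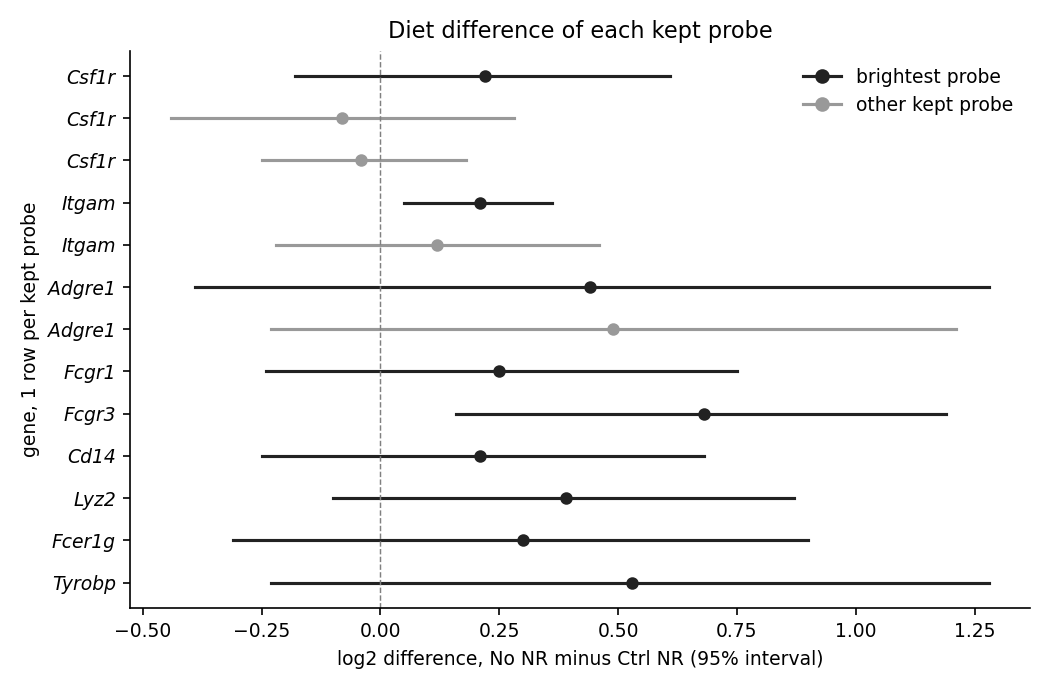
Log2 difference between the diets (No NR minus Ctrl NR, horizontal axis) with its 95% interval from limma for each of the 13 kept probes, in black for the brightest probe of a gene and in grey for its other probes. The intervals of the brightest Itgam probe and of Fcgr3 lie above 0 before adjustment for multiple testing, and the 2 other Csf1r probes lie slightly below 0.

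The mice spanned a wider range than the difference between the diets. Over the 24 mice, the highest value exceeded the lowest by 12.2-fold for Adgre1, 8.52-fold for Tyrobp, 6.29-fold for Fcer1g, 5.41-fold for Fcgr3, 5.17-fold for Fcgr1, 4.79-fold for Lyz2, 4.28-fold for Cd14 and 3.3-fold for Csf1r. The SDs of these 8 probes lay between the 97th and the 99.9th percentile of all kept probes. The brightest Itgam probe spanned 1.66-fold, at the 52nd percentile, and the second Itgam probe 2.65-fold, at percentile 94.5. The same few mice made up the extremes. Ctrl NR mouse 95 was among the lowest 3 for 8 of the 8 genes other than Itgam, and Ctrl NR mice 75 and 115 were for 7 of them. At the other end, No NR mouse 90 was among the highest 3 for 8 of 8, and Ctrl NR mice 88 and 117 were for 5 each. In all, 11 mice lay below the reference pool in all 8 genes and 5 mice lay above it in all 8. In the 3 lowest mice the brightest Itgam probe was at -0.08, 0.41 and -0.23, and in the highest, No NR mouse 90, it was at 0.14.

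Which of the genes followed the others was tested over the 36 pairs of the 9 genes, each by its brightest probe, with a two-sided permutation test of 100000 resamples adjusted over the 36 pairs. All 28 pairs among the 8 genes other than Itgam passed at 0.05, with Pearson r from 0.754 to 0.987 (median 0.938), Spearman rho from 0.767 to 0.98 and adjusted permutation p from 1.33e-05 to 5.14e-05. The unadjusted p of most of these was 1e-05, the smallest that 100000 resamples can give. Adgre1 and Fcer1g were the closest pair (r = 0.987, rho = 0.98), followed by Adgre1 and Csf1r (r = 0.981). Fcgr1 and Fcgr3, the pair of Fc receptor genes, had the lowest r of the 28 (r = 0.754). The same 28 pairs had r between 0.716 and 0.991 within the 12 Ctrl NR mice, between 0.829 and 0.989 within the 12 No NR mice, between 0.754 and 0.99 with slide means removed, and between 0.769 and 0.986 without the 2 mice farthest from the median. All 28 passed within each diet too, by the same permutation test. The genes were chosen with earlier results of these data known, and how many of all gene pairs would pass was not computed. Relations between genes were common on these arrays: in the fit on Csf1r below, 15.3% of 24775 probes rose and 9.11% fell.

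Itgam stood apart by its brightest probe. Probe sequences were not used here, so which transcripts this probe hybridises to was not checked. None of its 8 pairs passed (r from -0.15 to 0.214, rho from -0.139 to 0.169, adjusted permutation p from 0.389 to 0.988), and r stayed between -0.321 and 0.0632 within Ctrl NR and between -0.242 and -0.0455 within No NR. The second kept Itgam probe did follow the others: 8 of its 8 pairs passed, with r from 0.517 (Fcgr3) to 0.769 (Csf1r), rho from 0.515 to 0.786 and adjusted permutation p from 3.72e-05 to 0.0107. Within diets, r for this probe lay between 0.195 and 0.736 in Ctrl NR, where 5 of 8 pairs passed, and between 0.692 and 0.937 in No NR, where 8 of 8 did. The 2 kept Itgam probes had an r of -0.0672 with each other, and the dim probe that was not kept had an r of 0.469 with the second and -0.168 with the brightest. By contrast the 2 Adgre1 probes had an r of 0.967, and the 3 Csf1r probes had r values of 0.867, 0.687 and 0.721 with one another. The differences between these r values were not tested.

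**Figure D3:**
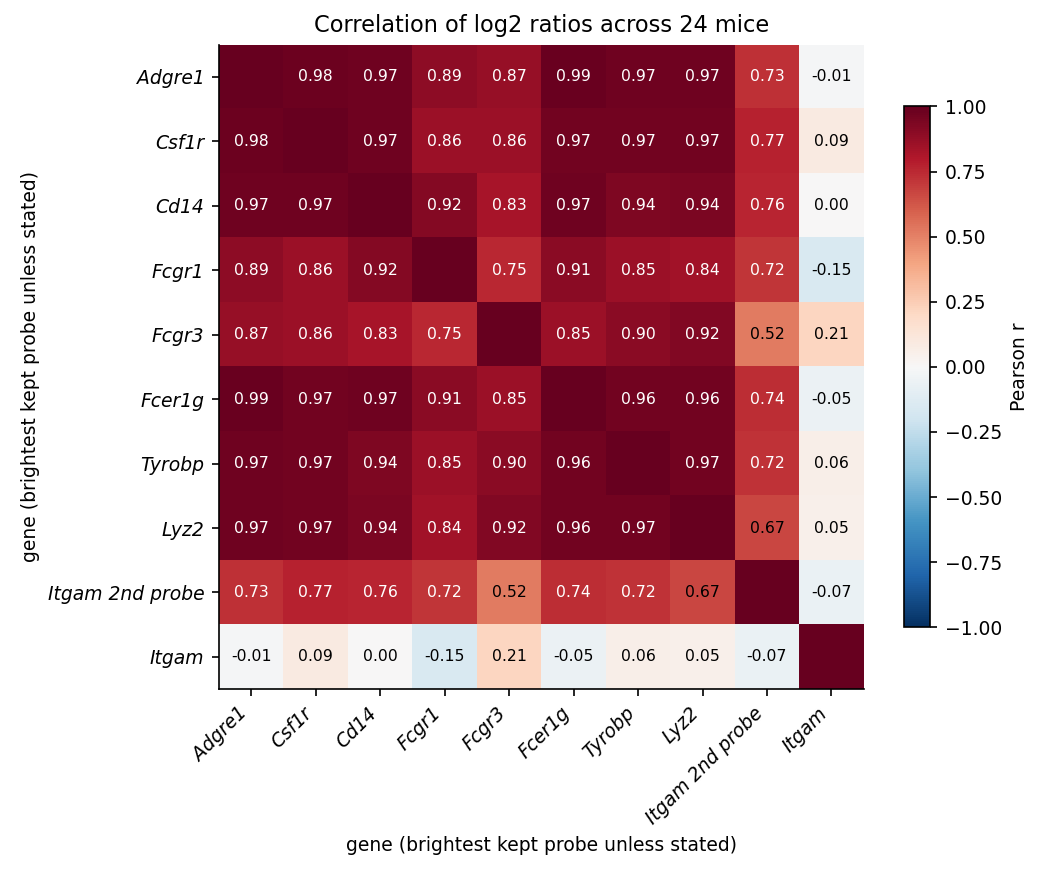
Pearson r of log2 ratios over the 24 mice for each pair of the 9 genes by their brightest kept probes, with the second kept Itgam probe added; red is positive and blue negative. The 8 genes other than Itgam form a block from 0.754 upward, the second Itgam probe reaches 0.517 to 0.769 with them, and the brightest Itgam probe lies between -0.15 and 0.214.

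The standing of the Itgam probe depended on how the arrays were scaled. When the arrays were centred on their median in place of loess, 8 of 8 pairs of the brightest Itgam probe passed, with a median r of 0.762 in place of 0.0289. Under that scaling 85.8% of all probes rose with Csf1r, and the median slope of all probes on Csf1r moved from 0.01 to 0.34. Under the authors' value table, the scanner software's processed signals, and both other background corrections, none of the 8 pairs passed. The brightest Itgam probe also moved with the share of spots well above background on an array, which ran from 34.5% to 49.4% (median 43.1%) in Ctrl NR and from 36.8% to 50.7% (median 45.6%) in No NR. Their r was 0.582 and rho 0.594 (permutation p = 0.00306 and 0.0029, adjusted over 3 such relations 0.00918 and 0.0087), with r at 0.653 within Ctrl NR, 0.536 within No NR, 0.402 with slide means removed and 0.601 without the 2 farthest arrays. For the second Itgam probe r with that share was 0.202 (rho 0.132, permutation p = 0.344 and 0.536, adjusted 0.344 and 0.536), and for Csf1r it was 0.314 (rho 0.218, permutation p = 0.137 and 0.307, adjusted 0.206 and 0.46). These 3 relations were chosen after the values were seen, and the part of spot detection in the Itgam result was not tested.

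The genes most like each probe over the 24 mice, among 12553 named genes and given with r only, differed in the same way. Nearest to Adgre1 were Pirb (r = 0.988), Ms4a7 and Nckap1l (both 0.987), and nearest to Csf1r were Pirb (0.981), Itgb2 (0.98) and Nckap1l (0.979). Itgb2, the partner chain of CD11b, was also nearest to Lyz2 (0.98) and the second nearest to Tyrobp (0.98), after Ifi30 (0.983). Fcer1g had Sh3bgrl3 (0.986), Nckap1l (0.985) and Daglb (0.982). Cd14 had C1qc (0.975), which encodes a chain of complement C1q, Pirb (0.972) and Rab7b (0.971). Fcgr3 had Lilr4b (0.95), Ms4a6d (0.945) and Atp6v1b2 (0.943), whereas Fcgr1 had Padi2 (0.958), B4galnt1 (0.952) and Btbd11 (0.947), so the Fc receptor pair shared none of its 3 nearest genes. The second Itgam probe had Cd37 (0.92), a tetraspanin of leukocytes, Fgd3 (0.916) and Card19 (0.909). The brightest Itgam probe had Oprm1 (0.923), an opioid receptor of neurons, Zfp663 (0.91), a zinc finger gene, and Esr2 (0.878), the estrogen receptor beta, all of them well above background on all 24 arrays. Among the genes of the lists below, Siglech (0.819), a receptor of plasmacytoid dendritic cells, and Csf3r (0.751), the granulocyte growth factor receptor, had the highest r with it. The other markers on their lists did not share this. The other kept neutrophil markers had r from -0.437 (S100a9) to -0.242 (Mmp9). The other kept dendritic cell markers had r from -0.294 (Flt3) to 0.43 (Zbtb46). With Itgb2 the r of the brightest Itgam probe was 0.0396, against 0.743 for the second Itgam probe.

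To give sizes on 1 yardstick, every kept probe other than those of Csf1r was fitted on Csf1r with diet as a term, and the slope is the change in log2 units per log2 unit of Csf1r. By their brightest probe, 7 of the 8 other genes rose with Csf1r (limma, Benjamini-Hochberg adjusted p under 0.05), where 15.3% of 24775 probes rose and 9.11% fell. The balance of the 3784 probes that rose and the 2257 that fell depended on the scaling: it was 3256 against 5367 in the authors' value table, 4271 against 4359 with the processed signals, and 21248 against 5 with median centring. Adgre1 had the steepest slope at 2.09 (SE 0.0874, limma adjusted p = 6.32e-16), followed by the adaptors Tyrobp at 1.85 (SE 0.102) and Fcer1g at 1.48 (SE 0.0853). Lyz2 at 1.19 (SE 0.0686), Cd14 and Fcgr3 both at 1.14 (SE 0.0651 and 0.123) and Fcgr1 at 1.07 (SE 0.13) followed. The slopes were not tested against one another, and the place of Fcgr1 in this order depended on the scaling, since its slope was 1.84 with the processed signals, above those of Tyrobp and Fcer1g there, and 0.63 with median centring. The brightest Itgam probe had a slope of -0.01 (SE 0.0761, 95% interval -0.16 to 0.15, limma adjusted p = 0.954), which became 0.56 (limma adjusted p = 6.77e-08) with median centring and took small positive values in 2 other settings. The second Itgam probe had 0.65 (SE 0.11, limma adjusted p = 3.88e-05).

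**Figure D4:**
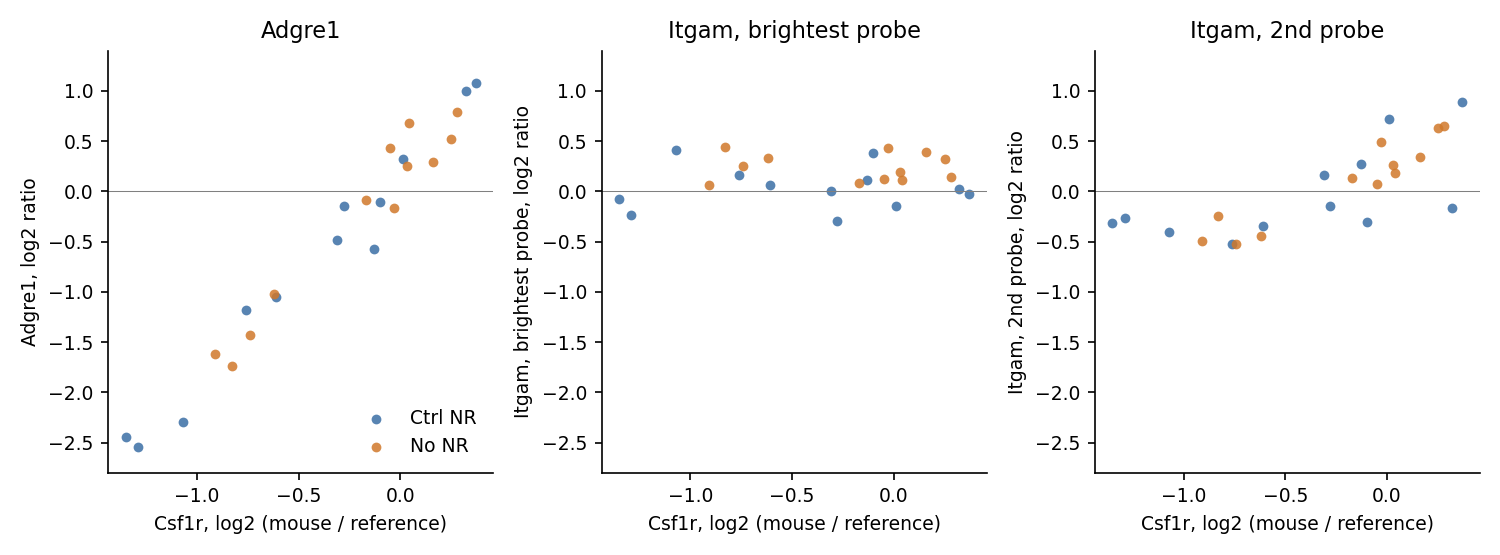
Log2 ratio of Adgre1, the brightest Itgam probe and the second kept Itgam probe (vertical axes, the same scale) against that of Csf1r (horizontal axis), 1 point per mouse in blue for Ctrl NR and orange for No NR. Adgre1 follows Csf1r at a slope of 2.09, the brightest Itgam probe stays between -0.29 and 0.44 along the whole range, and the second Itgam probe rises by 0.65 per unit.

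With Csf1r in the fit, the diet term compares mice at an equal level of Csf1r. It was 0.43 (SE 0.125) for Fcgr3, with an unadjusted limma p of 0.00182 and an adjusted p of 0.115, and 0.21 (SE 0.077, limma adjusted p = 0.225) for the brightest Itgam probe. For Adgre1 (-0.01), Cd14 (-0.03), Fcer1g (-0.03), Fcgr1 (0.02), Tyrobp (0.12) and Lyz2 (0.13) the term lay between -0.03 and 0.13, with limma adjusted p from 0.404 to 0.974. Fcgr3 thus had the largest diet term of these 8 genes, and it did not pass.

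The genes around these receptors were described from fixed lists, by the brightest kept probe of each gene. The counts in these lists stand beside 15.3% of all probes that rose with Csf1r and 9.11% that fell. Of the list of CSF1R ligands and myeloid transcription factors, 4 of 8 rose with Csf1r and 2 fell. Spi1, which encodes PU.1 (0.55, SE 0.0842, limma adjusted p = 8.99e-06), Irf8 (1.07) and Runx1 (0.49) were among those that rose. The ligand Il34 (-0.33, SE 0.0819, limma adjusted p = 0.00291) and the transcription factor gene Cebpa (-0.48) fell. With median centring, however, both had positive slopes (0.32 and 0.35) and 8 of 8 genes of the list rose. Under that scaling the median slope of all probes was 0.34, and 85.8% of all probes rose. The ligand Csf1 had a slope of -0.02 (SE 0.101). Between diets 4 of 8 were higher and 4 lower, and Cebpb (-0.35, unadjusted limma p = 0.00669, adjusted p = 0.188) and Il34 (-0.25, unadjusted limma p = 0.0197, adjusted p = 0.266) were lower in No NR without passing.

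Of the other Fc receptor genes, 3 of 5 kept members rose with Csf1r. The activating Fcgr4 had a slope of 1.07 (SE 0.0947, limma adjusted p = 5.5e-10), and the inhibitory Fcgr2b had 0.38 (SE 0.0753, limma adjusted p = 0.000284). Their diet differences were 0.10 (SE 0.223) and 0.02 (SE 0.103), next to 0.68 for Fcgr3. The third, Fcer1a at 0.45, is a receptor of mast cells and basophils.

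Of a list of receptors drawn up around DAP12, 6 of 10 kept members rose with Csf1r, with a median slope of 1.00. Whether each of them pairs with DAP12 was not checked. Trem2, the lipid-sensing receptor of adipose macrophages, had a slope of 2.75 (SE 0.145, limma adjusted p = 2.59e-14), and Cd300ld had 1.38 (SE 0.0903). Trem1, a receptor of neutrophils and monocytes, had a slope of -0.30 (SE 0.177, limma adjusted p = 0.245) and a diet difference of 0.38 (SE 0.187, limma adjusted p = 0.361). In No NR 9 of the 10 were higher and none passed, where 47.1% of all kept probes were higher. Of the kinases, linkers and enzymes that ITAMs engage, 13 of 16 rose with Csf1r and none fell, with a median slope of 0.90. Vav1 (1.41), Rac2 (1.16) and Blnk (2.12) led by p, and Syk had 1.15 (SE 0.0777, limma adjusted p = 2.07e-12). Nfatc1 was lower in No NR by -0.25 (unadjusted limma p = 0.00798, adjusted p = 0.198), against the direction of the other 15. Since most genes of these lists rose with Csf1r, their directions between diets are not separate observations.

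Of the inhibitory receptors and phosphatases that oppose ITAMs, 6 of 10 rose with Csf1r with a median slope of 0.64. Pirb (1.51) and Sirpa (1.33) had the lowest p. Activating and inhibitory genes of the pathway thus both rose with Csf1r, and neither list had a member called between the diets. Of the genes listed around CD11b (its partner chain, ligands, other integrin chains and linked proteins), 7 of 10 rose with Csf1r with a median slope of 0.36. Itgb2 had 1.62 (SE 0.0729, limma adjusted p = 1.89e-15) and Itgax, which encodes CD11c, had 1.83 (SE 0.123). Between diets, Icam2, a ligand on endothelium, was lower by -0.18 (unadjusted limma p = 0.0357, adjusted p = 0.317) and Lilrb4a, of the inhibitory receptors, was higher by 0.66 (SE 0.345, unadjusted limma p = 0.0681, adjusted p = 0.395), neither passing.

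Of the genes of the CD14 and TLR4 pathway, 8 of 13 rose with Csf1r, with a median slope of 0.24. Tlr2 had 0.81 (SE 0.0549, limma adjusted p = 2.16e-12) and Tlr1 1.28 (SE 0.112), and Tlr4, the signalling receptor behind CD14, had 0.38 (SE 0.0707, limma adjusted p = 0.000133). Irak3, which encodes a brake on this pathway, was higher in No NR by 0.33 (SE 0.0891, unadjusted limma p = 0.000831, adjusted p = 0.101), the lowest p between diets in these lists. It passed with array weights (adjusted p = 0.0486) and without Ctrl NR mouse 68 (0.38, adjusted p = 0.0292), and in no other setting run. Irak4, a kinase of the same pathway, was higher by 0.18 (unadjusted limma p = 0.0407, adjusted p = 0.33). Of the genes listed with lysozyme and macrosialin, which include cathepsins and Lgals3, 7 of 8 rose with Csf1r, with a median slope of 0.75. Lyz1 had 1.26 (SE 0.0806, limma adjusted p = 6.89e-13) and Lgals3, the galectin of macrophages, 2.09 (SE 0.127, limma adjusted p = 3.91e-13). All 8 were higher in No NR, with a median difference of 0.19 and none passing, where 47.1% of all kept probes were higher. As 7 of the 8 rose with Csf1r, these directions are not separate observations.

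**Figure D5:**
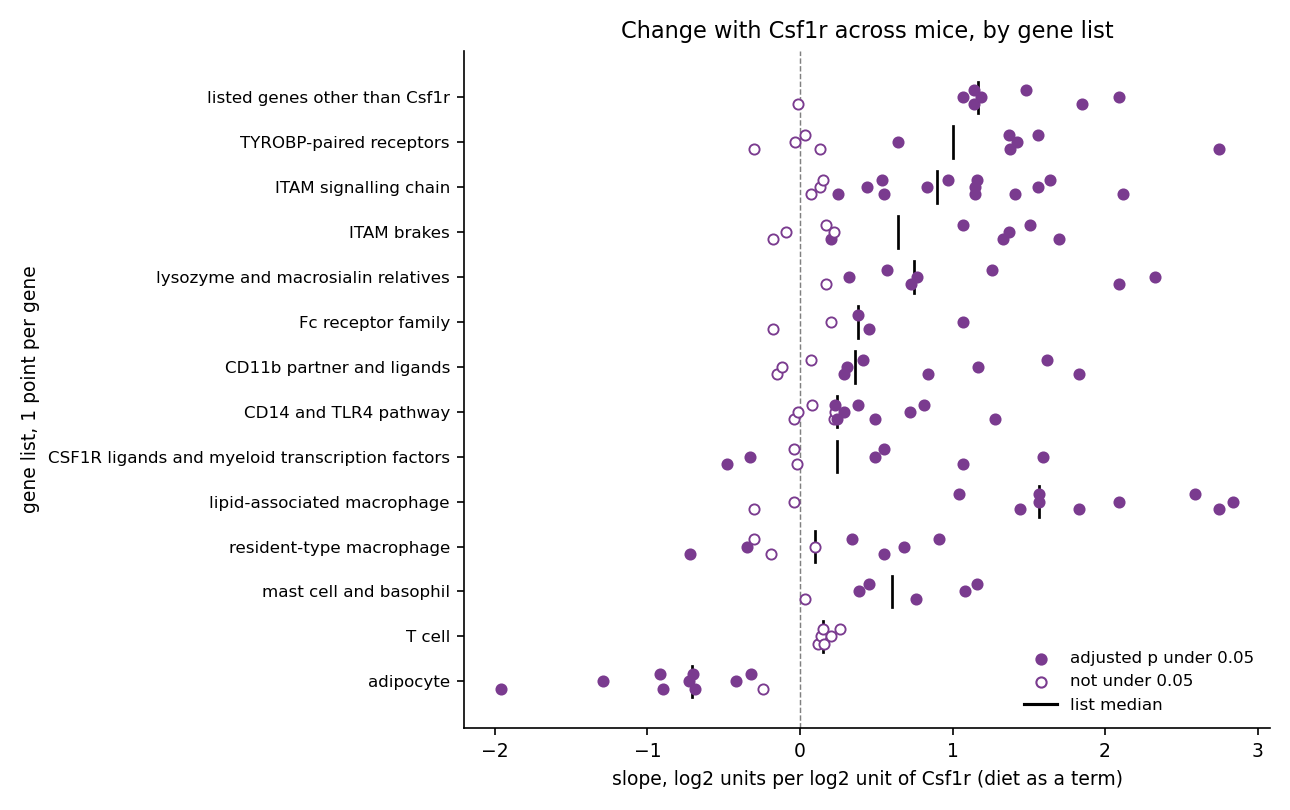
Slope of each gene on Csf1r over the 24 mice with diet as a term (horizontal axis), by gene list, with filled points for a limma adjusted p under 0.05 and a black bar at the list's median. Of the 8 listed genes 7 are filled, the lipid-associated macrophage markers have a median of 1.57, and the adipocyte markers have a median of -0.71, which was 0.33 with median centring.

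Markers of some cell types moved with these genes from mouse to mouse, and those of others did not. Over all probes, 15.3% rose with Csf1r and 9.11% fell. Of the markers of lipid-associated macrophages, 9 of 11 rose with Csf1r (median slope 1.57), and the mean log2 ratio of the list ran from -2.11 to 0.82 in Ctrl NR and from -1.43 to 0.75 in No NR. Of 9 resident-type macrophage markers, 4 rose and 2 fell (median slope 0.10), and Mrc1, the mannose receptor, had 0.55 (SE 0.0783). Of the adipocyte markers, 9 of 10 fell (median slope -0.71), among them Plin1 (-0.70, SE 0.0749) and Adipoq (-0.92, SE 0.116), but with median centring 8 of 10 rose and none fell (median slope 0.33, against 0.34 over all probes), with Plin1 at 0.31 and Adipoq at 0.30. In the authors' value table and with the processed signals 9 of 10 fell. The list's mean ran from -0.60 to 0.67 in Ctrl NR and from -0.51 to 0.79 in No NR. All 10 adipocyte markers, which the labelled tissue should hold, passed the filter on dim signals.

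Several of the genes are also expressed by other leukocytes, and their markers were read for that reason. Their counts stand beside 15.3% of all probes that rose with Csf1r and 9.11% that fell. Of mast cell and basophil markers, which matter for Fcer1g, 5 of 6 rose with Csf1r, with Cpa3 at 1.16 (SE 0.196), and the list's mean ran from -0.81 to 0.82 in Ctrl NR and from -0.81 to 0.63 in No NR. Of neutrophil markers, 5 of 12 were kept and 2 rose. S100a8 had 0.91 (SE 0.207, limma adjusted p = 0.00131) and S100a9 -0.08 (SE 0.101, limma adjusted p = 0.642), and the mean ran from -0.42 to 0.10 in Ctrl NR and from -0.31 to 0.22 in No NR. Of NK cell markers, 5 of 8 were kept and 2 rose, the mean ran from -0.42 to 0.14 in Ctrl NR and from -0.30 to 0.31 in No NR, and Ncr1 was well above background on 0 arrays. Of monocyte markers 4 of 6 rose, of dendritic cell markers 3 of 7 rose and 1 fell, and of T cell markers 0 of 6 rose or fell. With median centring no gene of any list fell with Csf1r, but under that scaling only 5 of 24775 probes fell and 85.8% rose.

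Markers of the other cell types that the tissue sample could hold were read in the same way, beside the same 15.3% and 9.11% of all probes. Of 8 endothelial markers, 3 fell with Csf1r (0 fell and 8 rose with median centring, where 85.8% of all probes rose). The list's mean ran from -0.34 to 0.25 in Ctrl NR and from -0.33 to 0.13 in No NR. Between diets 4 of the 8 were lower in No NR at an unadjusted limma p under 0.05, namely Cdh5 (-0.33), Egfl7 (-0.26), Eng (-0.21) and Kdr (-0.31). Of all 24778 kept probes, 1836 were lower at that threshold. Another 3 of the 8 endothelial markers were higher in No NR, 0 of them at an unadjusted p under 0.05. Of 7 stromal progenitor markers, 2 rose, namely the collagen gene Col1a1 (1.10, SE 0.116) and the growth factor receptor gene Pdgfra (0.65), and the mean ran from -0.72 to 0.22 in Ctrl NR and from -0.51 to 0.16 in No NR. Of B cell markers, 3 of 6 were kept and 0 rose or fell. Their mean ran from -0.63 to 1.13 in Ctrl NR and from -0.75 to 0.44 in No NR. Cd79b (-0.56) and Ms4a1 (-0.60) were lower in No NR at an unadjusted limma p under 0.05, against the same 1836 of 24778 kept probes. Of 6 mesothelial markers 0 rose or fell, with the mean from -0.91 to 0.73 in Ctrl NR and from -0.81 to 0.43 in No NR. Of epididymis and testis markers, 3 of 9 were kept and 0 rose or fell, with the mean from -2.15 to 3.05 in Ctrl NR and from -2.57 to 1.14 in No NR. Between the diets, no marker passed in any of these lists by limma. Without Ctrl NR mouse 68, the stromal gene Dcn passed (0.47, limma adjusted p = 0.0483), against 0.42 (adjusted p = 0.132) with all mice.

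All 11 lipid-associated macrophage markers were higher in No NR with a median difference of 0.37, where 47.1% of all kept probes were higher. As 9 of the 11 rose with Csf1r, their directions are not separate observations. Among the 11 was Mmp12, a macrophage elastase gene, higher by 0.74 (SE 0.338, unadjusted limma p = 0.0367, adjusted p = 0.318). The monocyte receptor gene Ccr2 was higher by 0.35 (SE 0.143, limma adjusted p = 0.275), while 3 of 6 monocyte markers were higher and 3 lower. The part of these cell types in the relations between the genes was not tested.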

How the data were processed

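Total RNA of epididymal fat was measured on 2-colour Agilent arrays of 62976 spots, and the submitters' processing notes name Agilent Feature Extraction (version 10.7.3.1). The deposited median spot signals, used for the main values, are linear and not normalized. The deposited quality flags (background, outlier, control) come from the scanner software, per the file headers. Its processed signals are deposited too and were used as an alternative setting. The authors' value table holds log2 Cy5 intensity, found by setting it against the spots (lowest r 0.99). Its median is 8.04 in the first sample's column, the only one read for this, and its normalization is not given in the sources used here. Signals were corrected with normexp (offset 50), normalized by loess within arrays and averaged per probe in limma 3.58.1 (R 4.3.3). The filter on dim signals kept the 24778 of 55681 probes whose Cy5 signal exceeded background, by the scanner's flag, in 6 or more mice of one diet. Accessions were matched to symbols through RefSeq, and 27235 probes had 1 symbol. Diets were compared with lmFit and eBayes, with p-values adjusted by Benjamini-Hochberg over all kept probes at 0.05. The second fit and the permutation tests are described with their results, and the fits were tested on simulated data.

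The members and lists were chosen with earlier results of these data known. Named genes were all listed genes with all probes, the 3 most correlated named genes of each (clone and predicted names left out), the 2 lowest p of each list in either fit, and a fixed set of further pathway and marker genes; Cd37, Fgd3 and Card19 follow the same rule applied to the second Itgam probe. The 36 pairs replace the 45 planned, since Cd68 was not analysed here. The number of arrays limits the precision.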

Additional observations from a re-analysis of the deposited data

How the results depend on the processing

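The brightest probe of each of the 9 genes kept a higher mean in No NR under each of the alternatives run and on leaving out each mouse, and none passed an adjusted p of 0.05, the lowest being 0.0661 for Fcgr3 with array weights. With median centring the differences lay between 0.01 for Csf1r and 0.57 for Fcgr3. On leaving out 1 mouse, that of Csf1r ran from 0.13 to 0.29, Fcer1g from 0.17 to 0.41, Adgre1 from 0.28 to 0.61, Cd14 from 0.13 to 0.32 and Fcgr1 from 0.16 to 0.38. The difference of the third Csf1r probe turned positive with array weights (0.01), the authors' value table (0.13), no background correction (0.14) and the processed signals (0.14), and ran from -0.08 to 0.01 on leaving out 1 mouse. The slope of the brightest Itgam probe on Csf1r turned positive with array weights (0.01), the authors' value table (0.02) and median centring (0.56), and ran from -0.06 to 0.04 on leaving out 1 mouse. Pairs of Itgam that passed went from 0 to 8 of 8 with median centring, with the mean of all kept probes and with its second kept probe, the last chosen after seeing the data. The 28 other pairs passed under each setting run. Probes called between diets went from 0 to 316 with array weights and ran from 0 to 271 on leaving out 1 mouse. Probes called with Csf1r went from 6041 to 21253 with median centring, and the share of all probes higher in No NR from 47.1% to 33.8%; the cause was not tested. Genes called with Csf1r numbered 8 of 8 with median centring, and 6 with only probes well above background on all 24 arrays, a filter that left Fcgr1 out; they numbered 7 with the second brightest Csf1r probe as the yardstick, also chosen after seeing the data. Cd68 as the yardstick was not run. No paired analysis was possible because the diets share no animal number. Signal over background limits Fcgr1, measured above it on 23 of 24 arrays, and the third Itgam probe.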
